A study of Saccharomyces cerevisiae with 6 samples.

Results

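The 5′ region of the yeast 18S rRNA gene was examined at single-nucleotide resolution in NET-Seq libraries of *rpa190-F1205H* and WT *Saccharomyces cerevisiae*. It comprises the first 900 of the 1800 positions of the 18S gene, from the first nucleotide after ETS1 to position 1600 of the 35S gene, counted from the transcription start. These are 900 of the 6858 positions in the deposited table. In the R64 assembly these positions are chrXII:465970-466869 on the minus strand, inside RDN18-2, an rRNA gene without introns within the 35S precursor RDN37-2. A second annotated copy, RDN18-1, lies at chrXII:455933-457732. The sources used here do not say to which copy a read was assigned. Position numbers were the only criterion for the members, although earlier results of these data were known when the region was chosen.

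NET-Seq (native elongating transcript sequencing) recovers RNA bound to an immunoprecipitated polymerase and reads its 3′ end. There were 3 *rpa190-F1205H* libraries and 3 WT libraries, from triplicate cultures of each strain grown at 30 °C to an OD600 of 0.3. The mutant was a haploid with the chromosomal *RPA190* gene deleted (*rpa190Δ*::*HIS3*) that carried *rpa190-F1205H* on the plasmid pRS315, and the methods give its C-terminal hemagglutinin tag on Rpa135, the second-largest polymerase subunit. WT is described as the appropriate parent strain, so whether it also carried a plasmid is not stated. *RPA190* lies outside the table, and the genotype of a library could not be checked from it.

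RNA polymerase I (Pol I) transcribes the 35S precursor, from which 18S rRNA of the small ribosomal subunit and 5.8S and 25S rRNA of the large subunit are cut. ETS1, the external spacer ahead of the 18S gene, is removed by cleavage at the mature 18S 5′ end, where the region begins. The 5′ end of the 18S sequence pairs with the U3 small nucleolar RNA during this processing, and the 5′ and central domains of the small subunit begin to fold on it while transcription continues. Rpa190 is the largest Pol I subunit, and the substituted residue lies in its trigger loop, a mobile element that closes over the incoming nucleotide. A read from nascent RNA marks the last nucleotide added, and the nucleotide after it in the sequence is the next to be added. Mature 18S rRNA can be carried into such libraries, as the study says of these. Counts of 3′ ends do not separate its reads from nascent reads within the 18S gene. At the first positions of the gene a mature fragment could be no longer than its distance from the 18S 5′ end. Read lengths are not part of the deposited values, so this was not tested.

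Values are RPM, reads per 1000000 reads, scaled by the authors to a fixed total over the 35S gene, so each is a share of a library. The 18S 5′ region held 478785, 477404 and 546264 reads in the *rpa190-F1205H* libraries, and 440860, 319942 and 472803 in the WT libraries. The median position had 402 to 450 reads in the mutant libraries and 249 to 384 in the WT libraries, and no position was at 0. Over the 900 positions, Spearman coefficients ran from 0.985 to 0.990 between mutant libraries, from 0.984 to 0.989 between WT libraries, and from 0.781 to 0.814 across strains. These coefficients describe profiles that share a sequence and are not tests. The spacers held 12.1 to 12.3% of the 35S reads in the mutant and 3.81 to 4.45% in WT, and a fixed total leaves correspondingly less for the genes of the mutant.

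The sequences around the 20 positions named below are given first, since the comparison is made nucleotide by nucleotide. Each was read from the nucleotide column of the deposited table and is written as RNA, 5′ to 3′. The last capital is the named position, the 10 capitals are the last 10 nucleotides of a transcript ending there, and the 10 letters after them had yet to be transcribed. The first 5 had the largest rises in the mutant with the deposited scaling.
Position 708 (chrXII:466852-466881): uuuuaagauaGUUAUCUGGUugauccugcc
Position 884 (chrXII:466676-466705): gcuaauacauGCUUAAAAUCucgacccuuu
Position 977 (chrXII:466583-466612): cuuuucgaauCGCAUGGCCUugugcuggcg
Position 1038 (chrXII:466522-466551): uucgaugguaGGAUAGUGGCcuaccauggu
Position 1426 (chrXII:466134-466163): accuugagucCUUGUGGCUCuuggcgaacc
The next 5 had the largest falls among positions with a mean of at least 50 RPM.
Position 1063 (chrXII:466497-466526): augguuucaaCGGGUAACGGggaauaaggg
Position 1598 (chrXII:465962-465991): gcaucaguauUCAAUUGUCAgaggugaaau
Position 988 (chrXII:466572-466601): gcauggccuuGUGCUGGCGAugguucauuc
Position 971 (chrXII:466589-466618): uaauaacuuuUCGAAUCGCAuggccuugug
Position 1374 (chrXII:466186-466215): gguccgauuuUUUCGUGUACuggauuucca
The following 8 were among the 5 highest positions of either strain.
Position 1164 (chrXII:466396-466425): aauccuaauuCAGGGAGGUAgugacaauaa
Position 1378 (chrXII:466182-466211): cgauuuuuucGUGUACUGGAuuuccaacgg
Position 743 (chrXII:466817-466846): ucauaugcuuGUCUCAAAGAuuaagccaug
Position 1031 (chrXII:466529-466558): aucaacuuucGAUGGUAGGAuaguggccua
Position 1172 (chrXII:466388-466417): uucagggaggUAGUGACAAUaaauaacgau
Position 1169 (chrXII:466391-466420): uaauucagggAGGUAGUGACaauaaauaac
Position 1171 (chrXII:466389-466418): auucagggagGUAGUGACAAuaaauaacga
Position 1321 (chrXII:466239-466268): uuaaaguuguUGCAGUUAAAaagcucguag
The last pair are the ends of the region.
First position (chrXII:466859-466888): cuucuucuuuUAAGAUAGUUaucugguuga
Position 1600 (chrXII:465960-465989): aucaguauucAAUUGUCAGAggugaaauuc
All 5 of the largest rises end in a pyrimidine, C or U, and 4 of the 5 falls end in a purine, A or G. No such pattern extended to all calls, since 135 of the 272 rises and 189 of the 364 falls in the region ended in A or G, as do 51.4% of its positions.

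To determine where occupancy differed, the strains were compared at each position with limma on log2(RPM + 1), adjusted by the Benjamini-Hochberg method over the 6843 tested positions of the 35S gene. All 900 positions of the 18S 5′ region were tested. Of these, 272 (30.2%) were higher and 364 (40.4%) were lower in the mutant, with adjusted p-values below 0.05. Over the whole 35S gene 40.6% of positions were higher and 33.9% lower, so rises were less frequent and falls more frequent here than in the gene as a whole. The 636 positions called in either direction made up 70.7% of the region, against a background of 74.5%. The split into rises and falls depended on the scaling: rises made up 42.8% of the calls with the deposited values and 2.56% when libraries were set to the same spacer total, where 208 of the 272 rises turned into falls and 22 stayed.

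The median log2 fold change of the 18S 5′ region was -0.13, against 0.05 over the 35S gene. Its distribution was skewed toward rises, with the middle 50% of positions between -0.49 and 0.43, the 5th percentile at -0.84 and the 95th at 1.42. A total of 98 positions rose by more than 1 on the log2 scale (10.9%, against 23.5% of the 35S gene), and 13 fell by more than 1 (1.44%, against 3.01%). Above 2 there were 14 positions (1.56%, against 9.66%), and none fell by more than 2 (against 0.0877%). The *rpa190-F1205H* and WT libraries did not overlap at 682 positions (75.8%, against 78.1% of the 35S gene), of which 293 were higher (background 41.8%) and 389 lower in the mutant (background 36.2%).

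**Figure D1:**
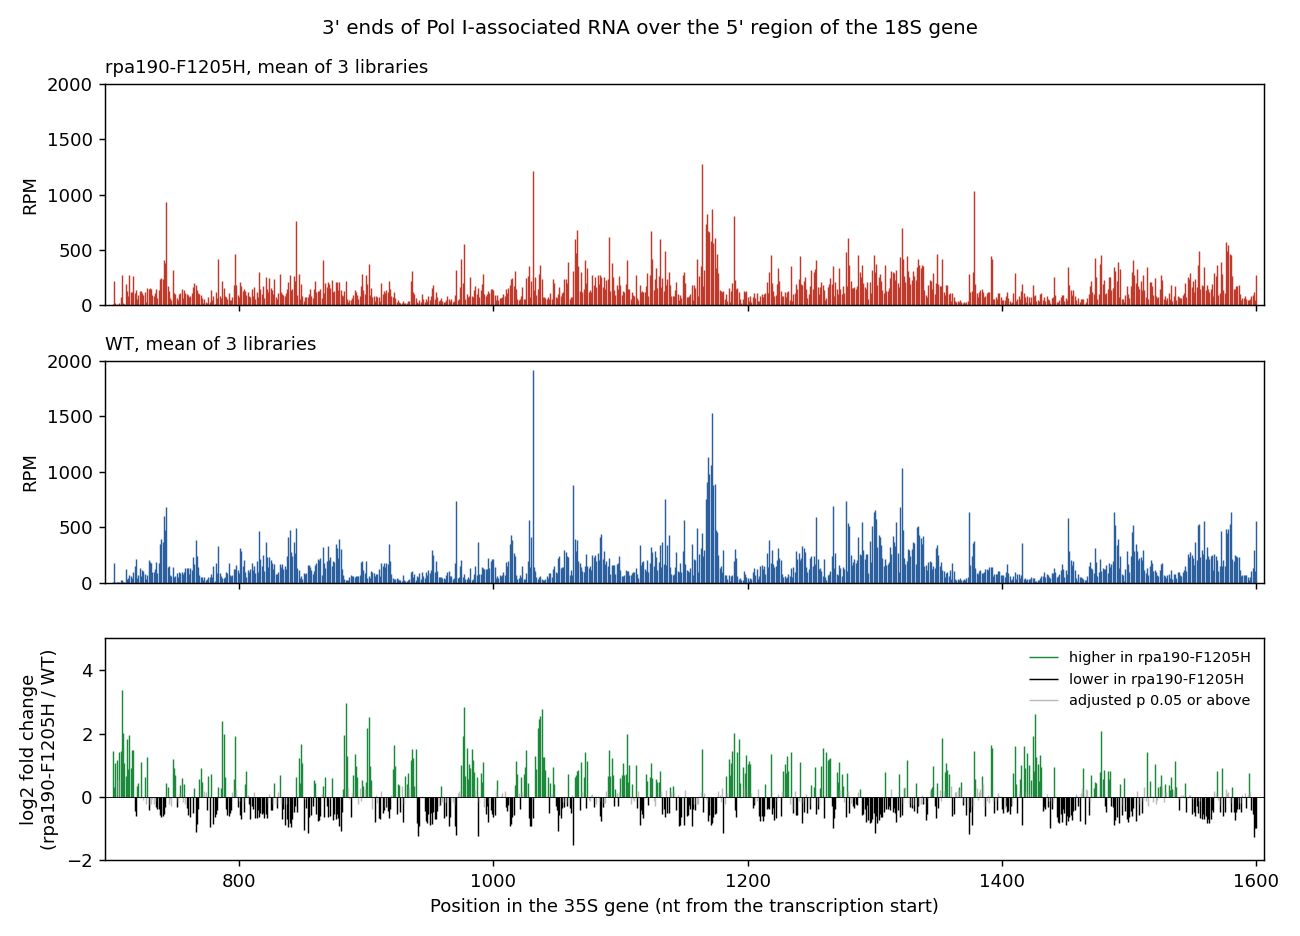
Mean RPM of the 3 *rpa190-F1205H* libraries (top) and the 3 WT libraries (middle) at each position of the 18S 5′ region, and the log2 fold change at each position (bottom), where green and black mark positions higher and lower in the mutant (adjusted p-values below 0.05) and grey marks the others. The tallest mutant bar is at position 1164 and the tallest WT bar at position 1031, and rises reach 3.37 while falls reach -1.51.

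Summed over the region, the strains differed little with the deposited scaling, and the mutant was lower at equal spacer totals (log2 ratio -1.62). With the deposited scaling, mean occupancy was 167, 168 and 165 RPM per position in the *rpa190-F1205H* libraries, against 174, 175 and 170.2 RPM in the WT libraries. Every mutant library was below every WT library, but the log2 ratio of the means was only -0.05 (exact permutation test, p = 0.1, the smallest p that 3 against 3 libraries allow). The median position did not separate the strains, at 126 ± 3.96 RPM in the mutant and 125 ± 3.36 RPM in WT (SD, n = 3 each, exact p = 0.9).

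Ratios within a library do not depend on its scaling. The log2 ratio of the 18S 5′ region to the other 900 positions of the gene, its 3′ region, was 0.03, 0.04 and 0.02 in the *rpa190-F1205H* libraries and 0.16, 0.14 and 0.15 in the WT libraries. The WT libraries thus held relatively more reads in the 5′ region than the mutant libraries, by 0.12 on the log2 scale (exact p = 0.1, adjusted over 6 ratios 0.15). Against ETS1 the log2 ratio was 0.53 ± 0.03 in the mutant and 2.32 ± 0.10 in WT (SD, n = 3 each), a difference of -1.79 (exact p = 0.1). Against the first 1132 positions of the 25S gene it was 0.02 ± 0.03 in the mutant and 0.02 ± 0.03 in WT, and the libraries overlapped (exact p = 0.8).

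Rises outnumbered falls in the 18S 3′ region and in ETS1, whereas falls outnumbered rises at the start of the 25S gene. The 18S 3′ region had 335 rises and 271 falls among 898 tested positions, ETS1 had 609 rises and 21 falls among 696, and the start of the 25S gene had 360 rises and 434 falls among 1132. The difference in calls between regions was not tested, since neighboring positions are not replicates.

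**Figure D2:**
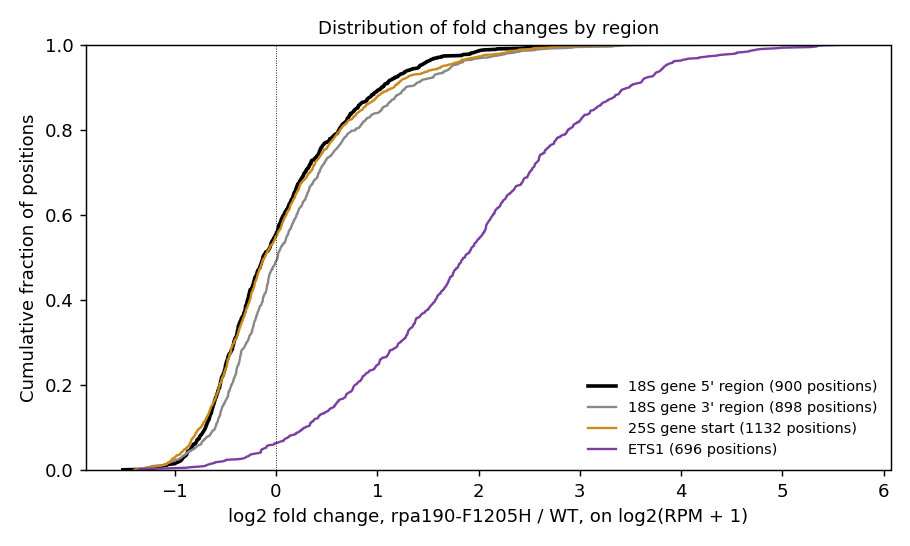
Cumulative fraction of positions (vertical axis) against the log2 fold change of *rpa190-F1205H* over WT on log2(RPM + 1) (horizontal axis) for 4 regions of the 35S gene. The curve of the 18S 5′ region runs close to that of the start of the 25S gene, with medians of -0.13 and -0.11, and ETS1 lies far to the right with a median of 1.87.

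Within the region, occupancy was uneven, and with the deposited scaling the sign of the difference was not the same in all windows. At equal spacer totals the mutant was lower in every window, with log2 ratios between -1.76 and -1.44. In 9 windows of 100 positions, mean occupancy ran from 106 to 236 RPM in *rpa190-F1205H* and from 103 to 244 RPM in WT, with windows 901 to 1000 and 1101 to 1200 at the 2 ends in both strains. The first window of 100 nucleotides of 18S rRNA was the only one in which all mutant libraries exceeded all WT libraries with the deposited scaling, with 131, 135 and 125 RPM in the mutant and 121, 119 and 118 RPM in WT. Its log2 ratio of 0.13 was the highest of the 9 (exact p = 0.1, adjusted over the windows 0.23), and it turned to -1.44 when libraries were set to the same spacer total. Of its positions 42 were higher and 31 lower in the mutant. With the deposited scaling the mutant mean exceeded the WT mean by 10.8 RPM per position over the 100 positions of this window. Over the 12 positions from 706 to 717 it did so by 86.9 RPM per position. Those 12 positions thus held most of the net excess of the window.

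The adjoining window, which ends at position 900, had the lowest ratio. It held 151, 149 and 142 RPM in the *rpa190-F1205H* libraries, against 174, 166 and 166 RPM in the WT libraries, a log2 ratio of -0.20 (exact p = 0.1, adjusted 0.23), with 25 positions higher and 54 lower. The windows from 1201 to 1300 and at the end of the region, up to 1600, were likewise lower in every mutant library, by 0.13 and 0.17 on the log2 scale. In the other 5 windows the libraries of the strains overlapped, with log2 ratios between -0.08 and 0.07. No window passed the threshold after adjustment, which this design cannot reach.

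**Figure D3:**
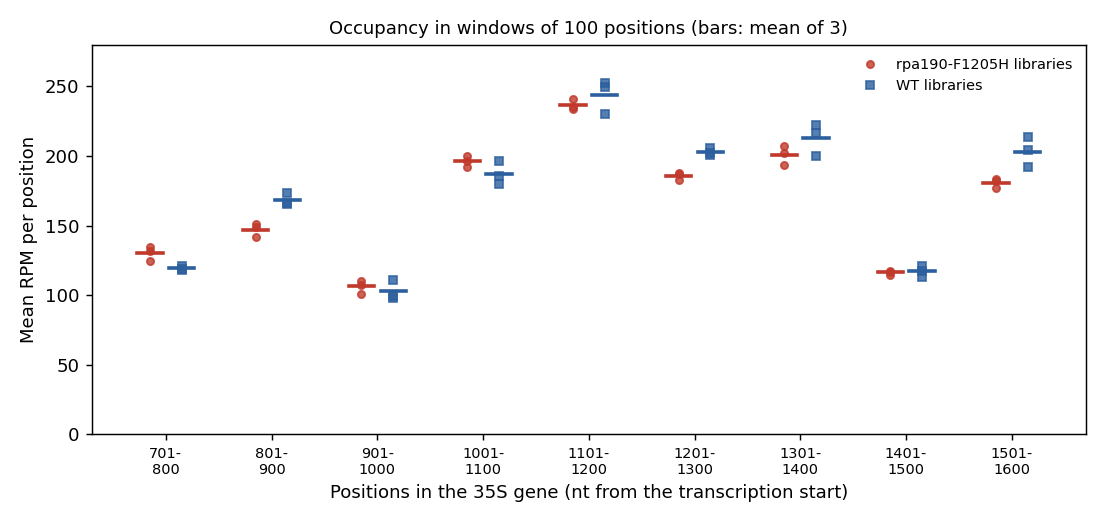
Mean RPM per position in 9 windows of 100 positions, for each *rpa190-F1205H* library (red circles, left of each pair) and each WT library (blue squares, right), with bars at the mean of 3. The strains separate in the first, adjoining, 1201 to 1300 and last windows, of which only the first is higher in the mutant, and it too is lower at equal spacer totals (log2 ratio -1.44).

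The sequence of the first window shows how rises and falls alternate over short stretches. It is printed with capitals at the 42 higher positions, and again with capitals at the 31 lower positions (chrXII:466770-466869).
First window, capitals higher in *rpa190-F1205H*: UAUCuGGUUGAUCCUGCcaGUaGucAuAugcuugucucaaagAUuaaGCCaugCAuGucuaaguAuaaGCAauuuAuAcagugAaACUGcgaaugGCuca
First window, capitals lower in *rpa190-F1205H*: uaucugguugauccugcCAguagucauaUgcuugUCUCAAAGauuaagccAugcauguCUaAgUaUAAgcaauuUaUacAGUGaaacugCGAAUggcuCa
The first 17 nucleotides of 18S rRNA hold 16 of the 42 rises and none of the falls, and all 8 positions from 735 to 742 fell, directly before the high position 743.

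The largest rise was at position 708, the 8th nucleotide of 18S rRNA. It had 289, 270.1 and 266 RPM in the *rpa190-F1205H* libraries, against 20.2, 31.6 and 26.2 RPM in the WT libraries. All mutant libraries were thus far above all WT libraries (log2 fold change 3.37 ± 0.15 SE, limma adjusted p = 2.6e-07), and its rank among the 900 positions was 143 in the mutant and 864 in WT.

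The other large rises followed the same pattern, at positions that were low in WT. Position 884 had 227, 211 and 216 RPM in the mutant and 24.8, 31.6 and 25.3 RPM in WT (log2 fold change 2.96). Position 977 had 589, 562 and 499 RPM in the mutant and 72.8, 78.9 and 77.7 RPM in WT (2.83). It became the 22nd highest position in the mutant, whereas it ranked 628th in WT. Position 1038 had 234, 231 and 244 RPM in the mutant and 32.7, 38.0 and 31.1 RPM in WT (2.77). Position 1426 had 93.1, 94.2 and 96.3 RPM in the mutant and 12.1, 17.8 and 14.9 RPM in WT (2.60). For these 5 positions the standard error of the log2 fold change was at most 0.15 and the limma adjusted p lay between 9.4e-08 and 5.2e-07. The strains did not overlap at any of them, which the rule for naming them required. They also stayed higher at equal spacer totals, by 1.09 to 1.84 on the log2 scale.

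The falls were named among called positions with a mean of at least 50 RPM over the 6 libraries, as were the rises. With the deposited scaling they were smaller than the rises in log2 units, whereas at equal spacer totals they were larger, between -3.07 and -2.72. Position 1063 had 287, 317 and 318 RPM in *rpa190-F1205H* libraries, against 802, 984 and 855 RPM in WT libraries (log2 fold change -1.51 ± 0.11 SE). It ranked 100th in the mutant and 10th in WT. Position 1598 had 113, 111 and 136 RPM in the mutant and 273, 269.7 and 335 RPM in WT (-1.27). Position 988 had 146, 168 and 156 RPM in the mutant and 391.8, 391 and 325 RPM in WT (-1.23). The remaining pair lie next to positions that rose with the deposited scaling. Position 971, 6 nucleotides before the rise at 977, had 311, 339.6 and 318 RPM in the mutant and 722, 698 and 800.3 RPM in WT (-1.19). Position 1374, which fell, lies 4 nucleotides before 1378 and had 257, 314 and 281 RPM in the mutant and 658, 585 and 666 RPM in WT (-1.16). Position 941, which is below the minimum mean and was chosen after its values were seen, fell by 1.22 on the log2 scale, with 21.0 ± 2.00 RPM in the mutant and 50.4 ± 6.73 RPM in WT (SD, n = 3 each). Limma adjusted p-values of the 5 named falls lay between 3.4e-06 and 2.7e-05.

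The highest position also differed between strains. In *rpa190-F1205H* it was position 1164, with 1312, 1270.2 and 1242 RPM in the mutant libraries, against 395, 517 and 445 RPM in the WT libraries, where it ranked 55th. In WT it was position 1031, with 1025, 1215 and 1384 RPM in the mutant libraries and 1757, 2175 and 1820 RPM in the WT libraries. Position 1031 was still the second highest of the mutant, although every mutant library was below every WT library (log2 fold change -0.67, limma adjusted p = 0.0019). The rise at 1164 was 1.5 on the log2 scale (adjusted p = 5.4e-06) with the deposited scaling and was -0.06 at equal spacer totals, where it was no longer called.

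Position 1378 ranked 3rd in the mutant and 79th in WT. It had 947, 1045 and 1102 RPM in the mutant libraries and 362, 395 and 373 RPM in the WT libraries (log2 fold change 1.45, and -0.11 and not called at equal spacer totals). Position 743 ranked 4th in the mutant and 15th in WT, with 854, 1004 and 932 RPM in the mutant and 635, 724 and 693 RPM in WT (0.44, and -1.12 at equal spacer totals).

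Of the other high positions, 1169, 1171 and 1172 lie in a cluster just downstream of 1164. From position 1169 to 1175 all 7 positions fell together, with a mean of 597, 596 and 643 RPM in the *rpa190-F1205H* libraries and 955, 1005 and 1017 RPM in the WT libraries (log2 ratio -0.70). These named positions were among the 5 highest in WT. Position 1172 had 830.3, 866 and 899 RPM in the mutant and 1428, 1523 and 1634 RPM in WT (-0.82), and it ranked 5th in the mutant and second in WT. Positions 1169 and 1171 changed by -0.76 and -0.88, and they ranked 12th and 20th in the mutant against 3rd and 4th in WT. The mutant maximum at 1164 thus lay 8 nucleotides before the WT maximum of the same cluster at 1172. Between them, positions 1167 and 1168 differed by -0.05 and -0.15 and were not called (limma adjusted p = 0.60 and 0.18). Outside the cluster, position 1321, the 5th highest in WT and 10th in the mutant, had 722, 700.1 and 676 RPM in the mutant and 1123, 1035 and 952 RPM in WT (-0.56).

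Position 1189, chosen after its values were seen, stood out downstream of the cluster. It had 805, 751 and 852 RPM in the mutant libraries and 191, 215 and 186 RPM in the WT libraries (log2 fold change 2.02, limma adjusted p = 4.1e-07), and it ranked 7th in the mutant and 278th in WT. Its neighbor 1190 was lower in the mutant, at 229 ± 14.1 RPM against 308 ± 6.36 RPM in WT (SD, n = 3 each), so the sign turned within 1 nucleotide.

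**Figure D4:**
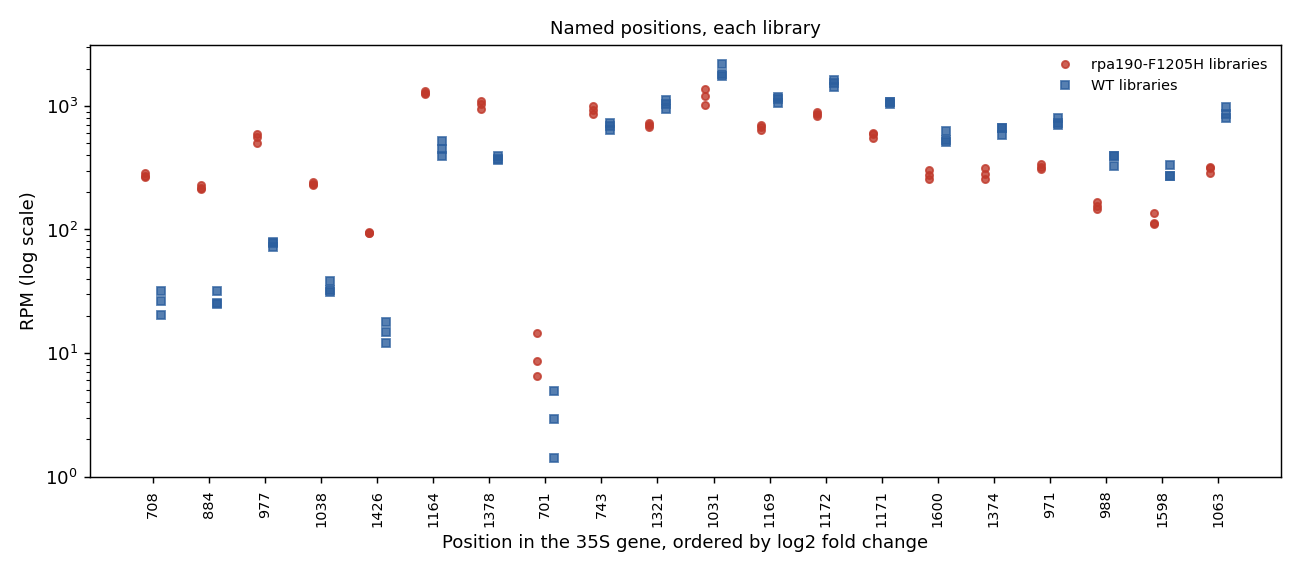
RPM on a log scale at the 20 named positions, ordered from the largest rise to the largest fall, for each *rpa190-F1205H* library (red circles, left) and each WT library (blue squares, right). The libraries of the strains are apart at all 20 positions with the deposited scaling, and the gap is widest at position 708, at 266 RPM or more in the mutant and 31.6 RPM or less in WT.

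The ends of the region differed in opposite directions. The first position, which is the first nucleotide of 18S rRNA, was the lowest position in WT and nearly so in the mutant, with 46, 27 and 24 reads in the *rpa190-F1205H* libraries and 4, 10 and 9 reads in the WT libraries. These are 14.5, 8.56 and 6.51 RPM in the mutant and 1.42, 4.93 and 2.92 RPM in WT (log2 fold change 1.43 ± 0.34 SE, limma adjusted p = 0.0048). The call was lost in an unequal-variance test (adjusted p = 0.12) and at equal spacer totals (adjusted p = 0.64). Position 1600, the last of the region, had 255, 274 and 305 RPM in the mutant and 507, 535 and 627 RPM in WT (log2 fold change -0.996, adjusted p = 7.1e-05).

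Some calls of one direction were contiguous. Uninterrupted runs, with single positions included, numbered 119 for rises and 142 for falls. Of these, 11 runs of rises and 20 runs of falls had at least 5 called positions, a length chosen after the data were seen. They held 79 of the 272 rises and 156 of the 364 falls, so most calls lay in shorter runs. Whether runs were longer than the share of called positions would give was not tested. The longest run of rises covered 12 positions, 706 to 717, and includes the largest single rise. Its mean was 135, 131 and 132 RPM in the mutant libraries and 50.1, 48.9 and 38.1 RPM in the WT libraries (log2 ratio 1.54, and -0.03 at equal spacer totals). Other runs of rises were at positions 975 to 985, with 186 ± 9.15 RPM in the mutant and 70.4 ± 2.10 RPM in WT (log2 ratio 1.40, and -0.16 at equal spacer totals), and at positions 1033 to 1041, with 176 ± 3.48 RPM in the mutant and 47.5 ± 2.70 RPM in WT (1.89, and 0.33 at equal spacer totals, SD, n = 3 each). The last of these runs begins 2 nucleotides after the WT maximum at 1031, so a position that fell is followed closely by 9 that rose. Each run is shown with 10 nucleotides on either side, with capitals at every position that was higher in the mutant.
Rises 706 to 717 (chrXII:466843-466874): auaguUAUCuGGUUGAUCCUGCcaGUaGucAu
Rises 975 to 985 (chrXII:466575-466605): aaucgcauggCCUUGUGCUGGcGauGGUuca
Rises 1033 to 1041 (chrXII:466519-466547): aUGGUaggauAGUGGCCUAcCaUgGUuuc

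The longest run of falls covered 18 positions, 1290 to 1307, with a mean of 227, 230.0 and 229 RPM in the *rpa190-F1205H* libraries and 348, 369 and 365 RPM in the WT libraries (log2 ratio -0.66). Positions 1443 to 1457 averaged 101 ± 1.36 RPM in the mutant and 159 ± 10.5 RPM in WT (-0.65), and positions 1556 to 1566 averaged 169.7 ± 12.6 RPM in the mutant and 269 ± 16.3 RPM in WT (-0.66, SD, n = 3 each). At equal spacer totals the log2 ratios of these runs were -2.22, -2.22 and -2.23. The 3 runs changed by nearly the same amount at levels that differed by over 2-fold. They are shown in the same way, with capitals at every position that was lower in the mutant.
Falls 1290 to 1307 (chrXII:466253-466290): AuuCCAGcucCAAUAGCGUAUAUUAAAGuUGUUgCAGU
Falls 1443 to 1457 (chrXII:466103-466137): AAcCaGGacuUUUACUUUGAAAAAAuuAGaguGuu
Falls 1556 to 1566 (chrXII:465994-466024): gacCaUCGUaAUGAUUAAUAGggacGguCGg
Over all runs of at least 5 positions, G and C made up 58.2% of the positions in runs of rises and 29.5% in runs of falls. Among all positions of the region 23.8% are G and 18.4% are C. Most calls lay outside these runs.

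The preceding sequence was described in the same way. The last 10 nucleotides held 47.0% G and C at the 272 positions that were higher in *rpa190-F1205H*, 39.3% at the 364 that were lower, and 41.1% at the 264 that were not called. Neighboring stretches overlap, so these shares are descriptions without a test.

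The reads were spread somewhat more evenly in the mutant. The 9 highest positions, 1% of the region, held 5.38, 5.59 and 5.92% of the reads in the *rpa190-F1205H* libraries and 6.35, 6.89 and 6.73% in the WT libraries (exact p = 0.1). The coefficient of variation over positions was 85.5% in the mutant and 98.5% in WT, and the libraries did not overlap. The positions were also divided into 3 groups of 300 by their mean over the 6 libraries. With the deposited scaling the lowest group had 104 rises and 85 falls. The middle group had 87 and 126, and the highest group 81 and 153. Over the region 30.2% of positions were higher and 40.4% lower, against 40.6% and 33.9% over the 35S gene. At equal spacer totals the region had 22 rises and 836 falls, so these counts hold for the deposited scaling only.

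Many of the highest positions were not shared between strains. Of the 45 highest positions by the strain median, 5% of the region, 20 were in both lists (44.4% of each list). Single libraries shared 37 to 42 of their 45 highest positions within the mutant, 38 to 40 within WT, and 17 to 23 across strains. Of the 25 positions in the mutant list alone, 21 were called higher and none lower, and of the 25 in the WT list alone, 23 were called lower and none higher. The lists were drawn from the same values as the calls, so these counts describe the lists and do not test them. The 20 shared positions included 1 rise and 13 falls. The last 10 nucleotides were 68.0% A and G at the positions in the mutant list alone, 66.0% at the shared positions, and 49.6% at those in the WT list alone. Over all positions of the region the share was 51.4%. Many listed positions are adjacent and share nucleotides, so these shares are descriptions without a test.

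To describe which nucleotides the occupancy followed, reads were summed by the last nucleotide and by its neighbors. The share ending in A or G was 56.5, 56.7 and 57.4% in the *rpa190-F1205H* libraries and 57.9, 58.1 and 57.1% in the WT libraries, which overlapped (exact p = 0.2). Both were above the 51.4% of positions that are A or G. Reads ending in C made up 19.9 ± 0.34% in the mutant and 17.9 ± 0.43% in WT, and reads ending in A 35.4 ± 0.46% in the mutant and 37.2 ± 0.20% in WT (SD, n = 3 each). The libraries did not overlap for C or for A (exact p = 0.1, adjusted over 20 shares 0.13).

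The next nucleotide separated the strains further. This comparison was chosen after the values were seen. Reads followed by A made up 31.0, 31.3 and 31.6% in the *rpa190-F1205H* libraries and 37.5, 36.6 and 37.4% in the WT libraries, where A follows 27.7% of positions. Reads followed by C made up 16.7, 16.7 and 16.7% in the mutant libraries and 13.2, 13.4 and 12.9% in the WT libraries, where C follows 18.4% of positions. The differences were -5.88 and 3.56 percentage points, and in neither did the libraries overlap (exact p = 0.1 each, adjusted 0.13). Among the 249 positions followed by A, 43 (17.3%) were higher and 145 (58.2%) lower in the mutant. Among the 166 followed by C, 67 (40.4%) were higher and 35 (21.1%) lower. Over the region 30.2% of positions were higher and 40.4% lower.

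The nucleotide beyond showed a like difference, with A at 31.2 ± 0.35% in the mutant and 36.7 ± 0.20% in WT, and C at 18.4 ± 0.06% in the mutant and 14.4 ± 0.26% in WT. Before the last nucleotide, G made up 35.9 ± 0.89% in the mutant and 31.7 ± 0.52% in WT, and A made up 23.3 ± 0.31% in the mutant and 28.2 ± 0.38% in WT (SD, n = 3 each, no overlap, exact p = 0.1).

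**Figure D5:**
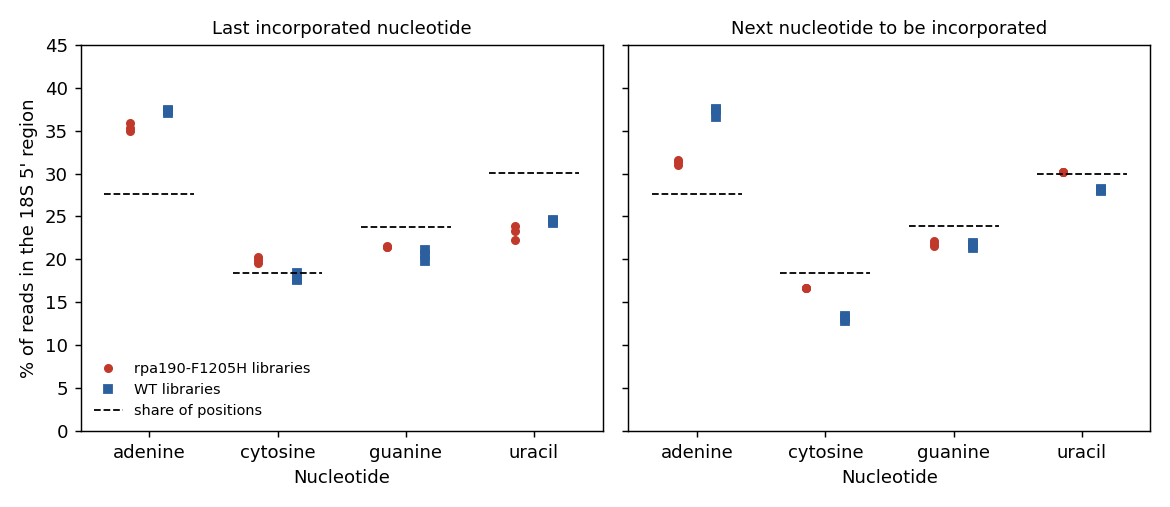
Percent of the reads in the 18S 5′ region by the last nucleotide (left panel) and by the next nucleotide (right panel), for each *rpa190-F1205H* library (red circles, left of each pair) and each WT library (blue squares, right), with dashed lines at the share of positions. The strains lie furthest apart for A as the next nucleotide, at 31.3% on average in the mutant and 37.2% in WT.

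Calls were also counted by the pair of last and next nucleotide, against 30.2% higher and 40.4% lower over the region. Before A, falls outnumbered rises for every last nucleotide, with 17 higher and 44 lower after A and 10 and 24 after G. Before C, rises outnumbered falls for every last nucleotide, with 21 higher and 7 lower after G and 16 and 6 after C. Of the 48 positions where C was last and U next, 28 were higher and 10 lower in the mutant. Of the 70 where U was last and A next, 9 were higher and 44 lower, and of the 48 where C was last and A next, 7 were higher and 33 lower. Positions ending in C thus included both mostly rises and mostly falls, by the nucleotide that followed. Positions 884 and 1426, among the largest rises, are C followed by U.

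The shares of reads followed by A and by C were also computed in the other regions. Reads followed by A made up 24.9 ± 0.05% in the mutant and 29.0 ± 0.46% in WT in the 18S 3′ region, and 30.0 ± 0.02% in the mutant and 35.1 ± 0.58% in WT at the start of the 25S gene. In ETS1 the share was 23.8 ± 0.63% in the mutant and 22.7 ± 0.83% in WT (SD, n = 3 each), and the libraries overlapped (exact p = 0.2). The excess of the 18S 5′ region over ETS1 within a library was 7.44 ± 0.35 percentage points in the mutant and 14.4 ± 0.38 in WT, without overlap (exact p = 0.1, adjusted over 6 differences 0.1). Reads followed by C made up 19.7 ± 0.16% in the mutant and 16.9 ± 0.34% in WT in the 18S 3′ region. At the start of the 25S gene they made up 16.7 ± 0.20% in the mutant and 13.8 ± 0.21% in WT. In ETS1 they made up 14.8 ± 0.27% in the mutant and 8.61 ± 0.24% in WT (SD, n = 3 each). The libraries did not overlap for C in any of these regions (exact p = 0.1 each). The part of mature 18S rRNA in these shares was not tested.

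The stretch of 10 nucleotides before and including the 3′ end approximates the RNA in the hybrid with the DNA template. Weighted by reads, it was 55.7, 55.6 and 56.1% A and G in the *rpa190-F1205H* libraries and 54.0, 54.4 and 53.9% in the WT libraries, against 51.4% unweighted. The difference of 1.69 percentage points was larger than the spread between libraries (exact p = 0.1). It was 1.54 points in the 18S 3′ region, 1.85 points at the start of the 25S gene and 0.17 points in ETS1, where the libraries overlapped (exact p = 0.6).

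The share of reads by the number of purines in the stretch differed in both directions. The 206 positions with 7 to 10 purines in the stretch held 32.2 ± 0.72% of the reads in the mutant and 27.9 ± 0.70% in WT (SD, n = 3 each). Of them 83 (40.3%) were higher and 56 (27.2%) lower, against 30.2% and 40.4% over the region. The 215 positions with 5 purines held 22.2 ± 0.35% in the mutant and 24.3 ± 0.30% in WT, with 51 (23.7%) higher and 107 (49.8%) lower. The 134 positions with 0 to 3 purines held 10.2 ± 0.15% in the mutant and 11.7 ± 0.36% in WT, with 35 (26.1%) higher and 58 (43.3%) lower. The libraries did not overlap in any of these 3 groups (exact p = 0.1 each). Over the 900 positions, the number of purines and the log2 fold change had a Spearman coefficient of 0.13, which is weak, and neighboring positions share nucleotides. Position 1164, the mutant maximum, and position 1031, the WT maximum, both had 8 purines in the stretch, although with the deposited scaling the first rose and the second fell in the mutant.

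The target of the 18S Northern probe of the study lies at positions 779 to 798 (chrXII:466772-466791). Occupancy there was 133, 136 and 125 RPM in the *rpa190-F1205H* libraries and 110.1, 101 and 99.1 RPM in the WT libraries (log2 ratio 0.35, and -1.22 at equal spacer totals, exact p = 0.1 each). With the deposited scaling 7 of its 20 positions were higher and 9 lower, near the 30.2% higher and 40.4% lower of the whole region.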

How the data were processed

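NET-Seq was analysed in 3 *rpa190-F1205H* and 3 WT libraries, mapped to strain and replicate number by column name. The authors deduplicated reads by molecular identifier with fqtrim, trimmed them with cutadapt, aligned them to R64 with STAR and counted 3′ ends per position with BEDTools. The deposited values are RPM, for which the authors set each library to 1000000 reads from position 1 to position 6739, and the deposited strain means, ratios and p-values were not used. Dividing each library by its smallest value gave whole reads, within 0.02 of a read, for 99.98% of 41148 values. The 35S gene held 3182392, 3155425 and 3687549 reads in the mutant libraries and 2817982, 2028349 and 3087916 in the WT libraries.

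Positions not at 0 in all libraries were tested with limma 3.58.1 (R 4.3.3) on log2(RPM + 1), which understates the fold changes of low positions. Strain was the only term, and p-values were adjusted over the 35S gene by the Benjamini-Hochberg method. Other values used two-sided exact permutation tests written in Python 3.11.15, in which 3 against 3 libraries cannot go below p = 0.1. Spearman coefficients were computed with scipy 1.17.1. Alternatives were other pseudocounts, filters and scalings, edgeR 4.0.16 and DESeq2 1.42.0 on the recovered reads, an unequal-variance test, the replicate number as a block, and each library left out. Only the limma, edgeR and DESeq2 fits were run on simulated data, to check that added changes were recovered. Far fewer positions were changed there than were called in these data. P-values reflect the spread between cultures.

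Named positions are the 5 highest by the median of each strain, the 5 largest rises and the 5 largest falls among called positions with a mean of at least 50 RPM and no overlap, and both end positions. The members and lists were chosen with earlier results of these data known.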

Additional observations from a re-analysis of the deposited data

How the results depend on the processing

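Scaling decided the direction of many differences, since the spacer share of the libraries differed between strains. With libraries set to the same spacer total, the median log2 fold change of the 35S gene moved by -1.53, and the 18S 5′ region had 22 rises and 836 falls. Relative to the 35S median, the region lay at -0.18 with the deposited values and -0.20 at equal spacer totals. At equal spacer totals the log2 ratio turned to -1.44 in the first window, -1.52 in 901 to 1000 and -1.50 in 1001 to 1100, and to -1.12, -0.0601 and -0.11 at positions 743, 1164 and 1378, while the first position was at 0.16 (adjusted p = 0.64). With the median over positions in place of the mean, the ratio turned to 0.0105 over the region, 0.0644 in window 1101 to 1200, 0.0771 in 1301 to 1400 and 0.0261 in 1401 to 1500. With the same total over the region, it turned to 0.00869 in window 1101 to 1200 and 0.0452 in 1401 to 1500, and leaving out 1 library gave -0.0354 to 0.0160 in the last. Under the other tests, pseudocounts, filters and scalings there were 222 to 299 rises and 268 to 456 falls, and 242 to 267 rises and 311 to 350 falls without 1 library. Of 379 values for the named positions, 374 kept their direction and their call.

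Same-numbered libraries deviated together with correlations of 0.13, 0.03 and 0.20, against -0.16 to 0.03 for differently numbered libraries. The numbers were not taken as pairs in the main tests, although numbers 1 and 3 had the highest correlations. With the replicate number as a block, limma called 274 rises and 375 falls, and every result kept its direction; paired exact tests cannot go below p = 0.25. Reads at single positions were 16 or more in the mutant and 4 or more in WT, and counting error matters mainly at the lowest positions.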
